A study of Mus musculus with 52 samples.

Results

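The data described here are the sites of CTCF and of the cohesin subunit Rad21 in wild-type (wt) mouse embryonic fibroblasts (MEFs), compared as whole landscapes. The members were all rows of the deposited wt peak lists for CTCF and for Rad21. They came to 60204 CTCF peaks and 67655 Rad21 peaks, 127859 of the 418635 peaks in the 8 lists of the series. The cells were 1 female clonal MEF line, Wt2A1, with an F2 inter-specific background of M.m.domesticus FVB and M.m.Castaneus and no change in SmcHD1. Being 1 clone, the line gave no spread between independent wt lines. The CTCF list was made from 3 merged libraries and the Rad21 list from 2, so that no list of a single library entered the comparison and no spread between replicates could be had. Reads of both alleles were pooled before peaks were called, and sites on the active and the inactive X therefore share a list. For comparison, the CTCF and Rad21 lists of SmcHD1-deficient MEFs were also read. Mut is 1 clone, Mut5A6, which carries the MommeD1 mutation of SmcHD1. SomKO is the CRISPR knockout of SmcHD1 made in wt MEFs after X inactivation, with libraries from 2 clones, A3 and D4. The somKO lists are taken to merge both clones, which the labels do not state outright.

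The antibodies and the fixation both differed between the lists. Rad21 chromatin (Abcam) was fixed with the long-arm crosslinker EGS followed by formaldehyde, and CTCF chromatin (Millipore) with formaldehyde alone. More cells were also crosslinked for Rad21 than for CTCF. A difference between the lists can therefore not be told apart from the difference in fixation, antibody, input or number of libraries. Intervals given below are 95% intervals that cover counting error only, and neighbouring peaks are not independent of each other. Scores are those of the peak caller, rise with the significance of a peak, and were compared by rank within a list. The lists also held 31 CTCF and 34 Rad21 peaks on the Y chromosome, although the cells were labelled female.

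CTCF is a zinc finger protein that binds a long, asymmetric DNA motif and acts as an insulator. Cohesin is a ring complex, of which Rad21 closes the ring, that holds sister chromatids together and extrudes chromatin into loops. Extruding cohesin is known to be held up at CTCF bound in one orientation, so that many loops end at a pair of CTCF motifs that point towards each other. Cohesin is also loaded and found away from CTCF, at active promoters and enhancers.

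The sequences that carried the comparison are shown first, since the strand of the CTCF motif is used throughout. A CTCF matrix of 20 positions was learned from CTCF peaks on odd-numbered autosomes and read on the even-numbered autosomes and X. Its most constant stretch, from position 7 to 18, reads CCANNAGNNGGC, where N stands for a position with no base at a share of 0.75 or more. In the lines that follow, each sequence is written 5′ to 3′ on the strand of the motif, from mm10, with the bases at positions 7 to 18 in capitals. Each is the match in the highest-scoring intronic or intergenic peak of its score decile on those chromosomes other than 18, with the match outside exons, a choice made after values were seen. The first 3 are CTCF peaks that overlap a Rad21 peak, and the next 3 are CTCF peaks that do not.
CTCF with Rad21, decile 10, chr4:88641127-88641166, minus strand: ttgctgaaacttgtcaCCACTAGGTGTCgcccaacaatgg
CTCF with Rad21, decile 7, chr12:103544289-103544328, plus strand: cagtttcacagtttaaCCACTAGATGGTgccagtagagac
CTCF with Rad21, decile 4, chr10:36773988-36774027, minus strand: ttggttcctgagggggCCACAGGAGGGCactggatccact
CTCF without Rad21, decile 7, chr14:42733000-42733039, minus strand: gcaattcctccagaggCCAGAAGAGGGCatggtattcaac
CTCF without Rad21, decile 5, chr16:38137484-38137523, minus strand: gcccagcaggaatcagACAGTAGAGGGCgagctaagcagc
CTCF without Rad21, decile 3, chr10:20296143-20296182, minus strand: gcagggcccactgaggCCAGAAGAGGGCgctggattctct
The first lies 2.48 kb from Ifna13, an interferon alpha gene, in a CTCF peak of score 48685 whose Rad21 partner scored 635. The next matches lie in introns of Ppp4r4 and Hs3st5, and their Rad21 partners scored 503 and 138. Of the matches without Rad21, the second lies in an intron of Gsk3b, a signalling kinase gene. The remaining matches lie between genes, 1.86 kb from Gm3008 and 1.39 kb from Mir6413. All were chosen as matches to the matrix, with scores of 17.7, 18.3 and 17.4 bits with Rad21 and of 16.9, 16.4 and 20.8 bits without.

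A second set shows Rad21 peaks without CTCF, outside promoters, with the letters of the AP-1 motif, TGANTCA, in capitals. AP-1 is the dimer of Fos and Jun family factors that binds many fibroblast enhancers. Each sequence is the plus strand of mm10, and each was chosen by the same rule among peaks that hold the motif within 100 bp of the midpoint.
Rad21 without CTCF, decile 8, chr6:37440996-37441042: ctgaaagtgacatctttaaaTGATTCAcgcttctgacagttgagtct
Rad21 without CTCF, decile 6, chr10:70426487-70426533: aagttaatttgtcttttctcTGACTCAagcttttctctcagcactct
Rad21 without CTCF, decile 4, chr10:96504488-96504534: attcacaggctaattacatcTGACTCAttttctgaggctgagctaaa
The first lies in an intron of Creb3l2, a transcription factor gene, with a Rad21 score of 604. The second lies 10.99 kb from Gm47946 with a score of 235, and the third in an intron of Gm48505 with a score of 95. The best CTCF matrix score anywhere in these peaks was 5.37, 8.37 and 0.166 bits, under the match limit of 11.8 bits.

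By an overlap of 1 bp, most sites of either protein were shared. Of the CTCF peaks, 40683 overlapped a Rad21 peak by at least 1 bp, a share of 67.6% (67.2 to 67.9). Of the Rad21 peaks, 39820 overlapped a CTCF peak, a share of 58.9% (58.5 to 59.2). When an overlap of at least 50% of both peaks was required, the shares were 35.1% and 31.2%, and with midpoints within 500 bp they were 55.8% and 49.5%. These shares of all peaks are the background for the shares given below by score, class and motif. CTCF peaks covered 1.57% of the known sequence of the autosomes and X, and Rad21 peaks 2.31%. By base rather than by peak, 58.7% of the sequence in CTCF peaks lay in a Rad21 peak, and 39.8% of the sequence in Rad21 peaks lay in a CTCF peak. That left 19521 CTCF peaks without Rad21 and 27835 Rad21 peaks without CTCF. The nearest peak of the other list was then a median of 7.03 kb away for CTCF (6.83 to 7.25) and 7.98 kb for Rad21 (7.76 to 8.21).

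Overlap was close to complete among the strongest peaks and low among the weakest. In the top score decile, 99.3% of CTCF peaks overlapped Rad21 (99.0 to 99.5), against 28.5% in the bottom decile (27.4 to 29.7). For Rad21 the range was wider, from 13.6% at the bottom (12.8 to 14.4) to 99.97% at the top, where 2 of 6765 peaks lacked CTCF. The share rose at every step of the scale in both lists. It passed 50% in the fourth decile for CTCF (50.5%) and in the fifth for Rad21 (51.3%), and in the eighth decile the lists were level at 96.9% and 96.6%. Rad21 peaks without CTCF were thus weak peaks for the most part, with a median score of 51 against 430 for those with CTCF. CTCF peaks without Rad21 had a median score of 162, against 1184 with Rad21. Over the 39820 closest pairs, the scores of the partners rose together, with a Spearman rho of 0.627 as a description of this pair of lists, in which both scores also follow read depth.

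**Figure D1:**
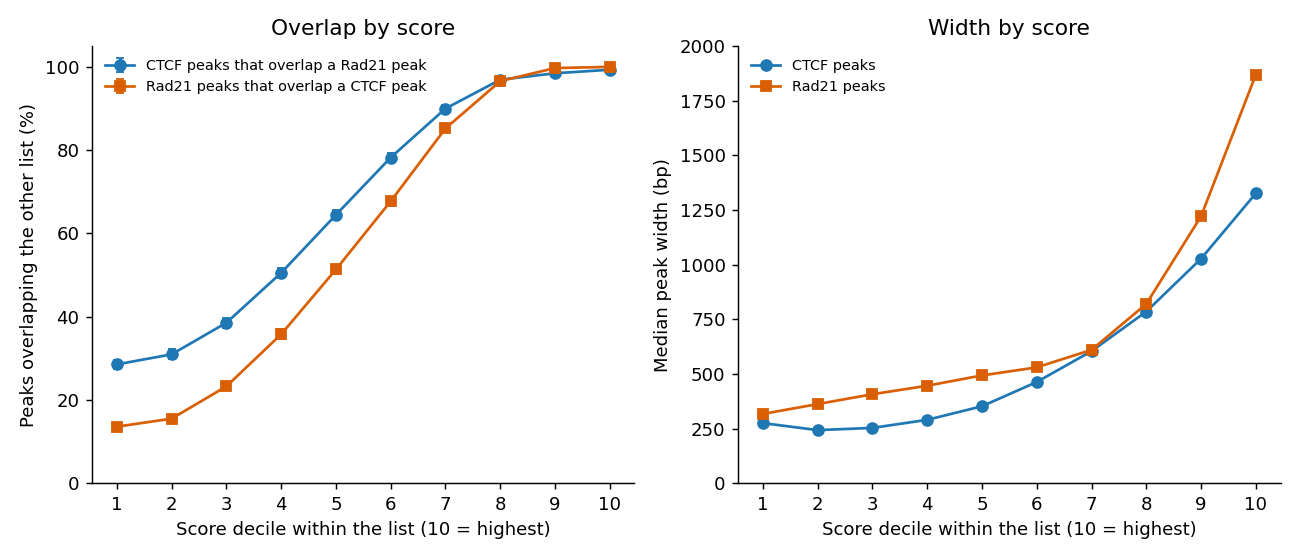
Left, share of CTCF peaks (circles) and Rad21 peaks (squares) that overlap the other list, by score decile within the list, with 95% Wilson intervals; right, median peak width in bp by the same deciles. Overlap rises from 28.5% to 99.3% for CTCF and from 13.6% to 99.97% for Rad21, and the median width rises to 1326 bp and 1869 bp in the top decile.

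The overlap varied little between autosomes. Over the 19 autosomes, the share of CTCF peaks with Rad21 was 68.1% ± 3.27 (SD, n = 19 chromosomes), from 63.2% on chromosome 5 to 75.6% on chromosome 3. Peak density ranged more widely than overlap. The paper adjusted its RNA counts for differences in copy number between chromosomes, and densities and scores were not adjusted for copy number here. CTCF had 24.0 ± 6.74 peaks per Mb and Rad21 27.2 ± 6.71, and both were densest on chromosome 11, at 41.4 and 44.0 peaks per Mb. The lowest autosomal densities were 15.4 for CTCF on chromosome 3 and 18.4 for Rad21 on chromosome 14. The number of Rad21 peaks per CTCF peak was 1.14 ± 0.0851, from 1.03 on chromosome 7 to 1.31 on chromosome 13. The X chromosome lay below all autosomes, with 11.4 CTCF and 10.8 Rad21 peaks per Mb and 0.954 Rad21 peaks per CTCF peak. The share of Rad21 peaks with CTCF was 58.5% ± 2.76 over the autosomes, from 51.8% on chromosome 13 to 63.0% on chromosome 7. On X this share was higher than on any autosome, at 69.4%, while the share of CTCF peaks with Rad21 was 66.6%.

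Rad21 peaks were wider than CTCF peaks. The median width was 581 bp for Rad21 (576 to 586) and 443 bp for CTCF (439 to 447). The gap of 138 bp was 258 bp with scores of at least 50 in both lists and 208 bp with lists of equal length. Peaks over 2 kb made up 8.51% of the Rad21 list and 4.27% of the CTCF list, and the widest were 14399 bp and 10754 bp. Width rose with score in the Rad21 list, and in the CTCF list from the second decile, at 243 bp, upwards, while the bottom decile had 275 bp. The Rad21 median was the higher in every decile, by most at the top, at 1869 bp against 1326 bp, and by least in the seventh, at 610 bp against 604 bp. Shared peaks were wider than unshared ones, at 745 bp against 444 bp for Rad21 and 578 bp against 286 bp for CTCF.

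Most shared sites were simple pairs, with 1 CTCF and 1 Rad21 peak. Of the closest pairs, 35267 of 39820 (88.6%) met no further peak. 1284 CTCF peaks met 2 or more Rad21 peaks, and 2047 Rad21 peaks met 2 or more CTCF peaks, with at most 5 CTCF peaks in 1 Rad21 peak. In 34.0% of closest pairs the CTCF peak lay wholly inside the Rad21 peak, and in 20.6% the reverse was found.

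The partners were close but seldom centred on each other. The median distance between midpoints was 167.5 bp (164.5 to 170), and 62.3% of pairs lay within 250 bp. A midpoint is the centre of the called interval, not the point of highest signal. The distance was shortest in the middle of the Rad21 scale, at 76.5 bp in deciles 4 and 5, and longest at the top, at 374 bp (363.5 to 383). Relative to the width of the Rad21 peak, it varied less, with a median from 19.6% to 21.9% of the width in all deciles from the fourth up. Below that it was larger, at 27.9% in the third decile, 36.6% in the second and 60.04% in the bottom one, where the median distance was 237.5 bp.

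Read on the strand of the CTCF motif, the midpoints of the 2 proteins lay on opposite sides of it. The motif is taken to point in the direction in which its core is written above, and downstream is the 3′ side. In 14280 pairs with a motif on the even-numbered autosomes and X, the Rad21 midpoint was downstream in 73.0% (72.2 to 73.7), with a median position of 63 bp downstream (60 to 65). The CTCF midpoint was downstream in 29.4% (28.7 to 30.2), and its median position was -44 bp (-47 to -42), on the upstream side. In 78.7% of pairs (78.1 to 79.4) the Rad21 midpoint lay further downstream than that of its own CTCF partner. The reach of the peaks told the same: Rad21 peaks extended a median of 265 bp upstream and 411 bp downstream of the motif, and CTCF peaks 373 bp upstream and 231 bp downstream. For the 3 shared sequences printed above, the downstream side is to the right of the capitals.

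**Figure D2:**
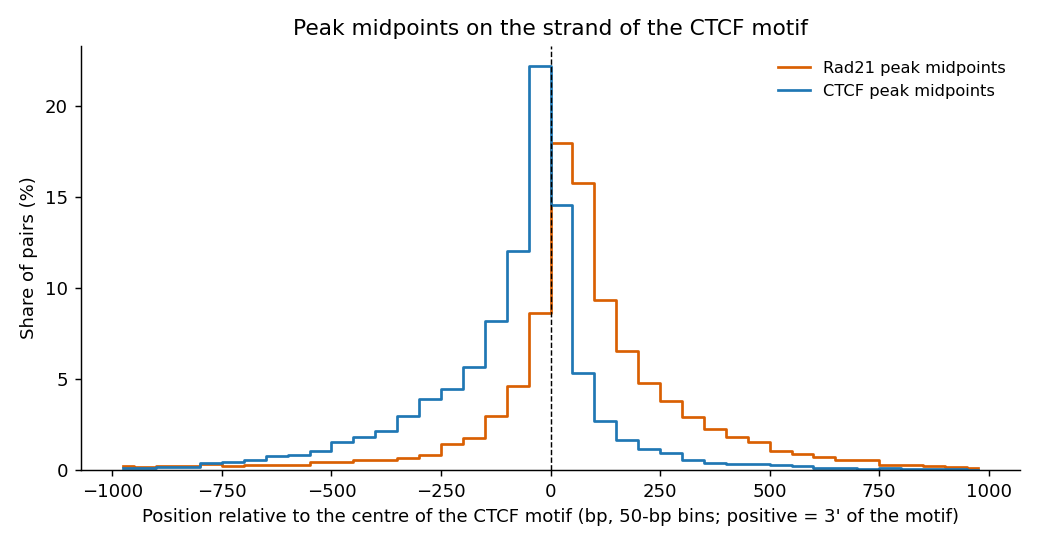
Distribution of Rad21 and CTCF peak midpoints around the centre of the CTCF motif, in 50-bp bins on the strand of the motif, as a share of 14280 overlapping pairs; positions beyond 1000 bp are not drawn. Rad21 midpoints peak to the right of 0 (73.0% downstream) and CTCF midpoints to the left (29.4% downstream).

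This arrangement was found along the whole CTCF scale except near its bottom. The Rad21 share downstream was 59.6% in the bottom decile, where only 89 pairs had a motif (49.2 to 69.1), 77.5% in the fifth and 66.3% in the top. The CTCF midpoint was centred on the motif in the second decile, with a median of 0 bp, and moved upstream with each further decile to -157.5 bp at the top. Each of the 10 chromosomes read had between 70.1% and 77.1% of Rad21 midpoints downstream and between 26.4% and 33.4% of CTCF midpoints. For narrow Rad21 peaks, under 600 bp, the shares were 75.5% and 35.3%. At promoters they were 66.1% and 34.5%, against 74.0% and 28.6% elsewhere. In pairs of lists from SmcHD1-deficient lines, the Rad21 midpoint was downstream in 70.1% in mut and 71.3% in somKO, and the CTCF midpoint in 26.0% and 36.4%.

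The order in which motifs face along a chromosome depended on their distance where Rad21 was present. Neighbouring motifs are called convergent if they point towards each other, divergent if they point away, and tandem if they point the same way. Along a chromosome convergent and divergent pairs must alternate, so their totals are equal, at 3403 and 3404 of 14276 pairs of CTCF peaks with Rad21. Their distances were not equal. Convergent neighbours lay a median of 60.2 kb apart and divergent ones 27.8 kb. At 5 to 20 kb, 15.7% of pairs were convergent (14.5 to 17.0) and 29.8% divergent (28.3 to 31.4). At 200 to 500 kb the order was turned, with 36.9% convergent (34.1 to 39.8) and 14.5% divergent (12.5 to 16.7). Over 500 kb there were 172 convergent and 43 divergent pairs.

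CTCF peaks without Rad21 did not have this pattern. Of 5637 neighbouring pairs, convergent ones lay a median of 83.4 kb apart and divergent ones 84.9 kb. At 5 to 20 kb the shares were 22.3% (19.6 to 25.3) and 23.7% (20.9 to 26.7), and at 200 to 500 kb 24.6% (21.8 to 27.5) and 27.9% (25.02 to 30.9). For both distances, the intervals of the convergent share with and without Rad21 did not overlap. With matches in repeat sequence left out, the shares at 5 to 20 kb with Rad21 were 12.7% convergent and 33.3% divergent, and those without Rad21 20.0% and 17.0% of 165 pairs. Neighbours in each set are next to each other in that set, and may have peaks of the other set between them. The sets also differ in CTCF score, with a median of 1184 with Rad21 and 162 without. Pairs were not split by score, so a difference by Rad21 cannot be told apart from one by CTCF score.

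**Figure D3:**
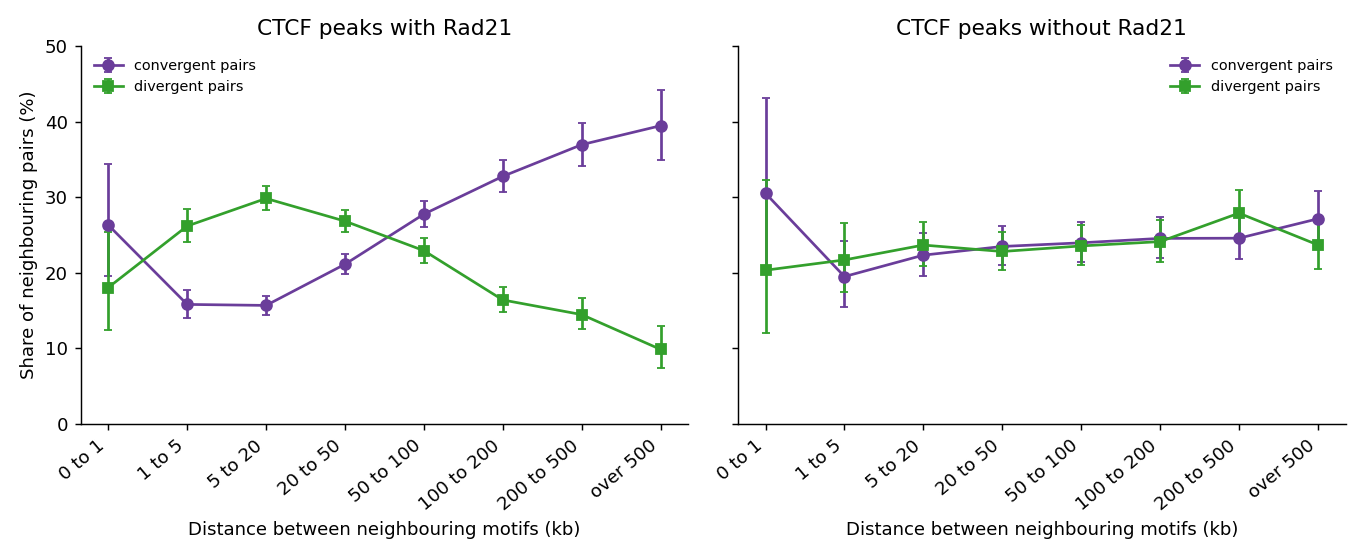
Share of neighbouring CTCF motif pairs that are convergent (circles) or divergent (squares), by the distance between the motifs in kb, for CTCF peaks with Rad21 (left) and without (right), with 95% Wilson intervals. With Rad21, convergent pairs rise from 15.7% at 5 to 20 kb to 39.4% over 500 kb while divergent pairs fall to 9.86%; without Rad21, from 1 kb upwards, the shares lie between 19.5% and 27.9%.

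A CTCF motif was found in most CTCF peaks of either kind. On the even-numbered autosomes and X, 77.1% of CTCF peaks with Rad21 held a match (76.5 to 77.7) and 63.3% of those without (62.3 to 64.3). The order was the opposite within each of the 5 lower deciles. In the third decile, 75.4% of peaks without Rad21 held a match and 58.5% of those with it. The bottom decile held few in either kind, 22.4% without and 15.2% with Rad21. In 200-bp windows at the midpoint, 42.0% with Rad21 and 52.5% without held a match, against 1.61% of all 200-bp tiles of the genome. These windows miss motifs that lie away from the midpoint of a wide peak, and peaks with Rad21 were wider.

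Matches in CTCF peaks without Rad21 lay in soft-masked sequence, which marks repeats, in 58.8% (57.5 to 60.1), against 29.1% with Rad21 (28.3 to 29.8) and 34.3% of the whole genome. Within every decile the gap was narrower, and from the seventh up it was turned. In the bottom decile the shares were 67.7% without and 50.0% with Rad21, in the third 65.1% and 62.3%, and in the fifth 52.3% and 50.2%. In the seventh decile they were 24.5% without and 26.5% with Rad21, and in the eighth 13.8% and 19.04%. Many were copies of one another: 45.2% of matches without Rad21 were identical over 20 bases to another in the same group, and 19.7% of those with Rad21. The commonest of all, printed with positions 7 to 18 in capitals, is shown because it alone made up 6.39% of the matches without Rad21.
commonest match: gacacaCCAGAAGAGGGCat
second without Rad21: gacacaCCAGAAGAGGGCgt
second with Rad21: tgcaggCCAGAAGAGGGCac
The commonest match was found at 361 CTCF peaks without Rad21 and 200 with it, and every copy was soft-masked. The second without Rad21 was found at 185 without and 39 with Rad21. The second with Rad21 was found at 15 without and 74 with. All matches came to 5647 without and 14286 with Rad21, so counts alone lean to the side with Rad21. They lie at many positions and so have no single coordinate. The B2 family of short interspersed elements is known to carry CTCF motifs in mouse; the family of these copies was not tested.

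CTCF sites were less tied to gene starts than Rad21 sites. A peak was called a promoter peak if its midpoint lay within 1 kb of the start of any GENCODE M21 transcript. Of Rad21 peaks 22.9% were at promoters (22.6 to 23.3) and of CTCF peaks 17.0% (16.7 to 17.3), against 6.13% of the genome sequence. Introns held 37.9% of Rad21 and 40.8% of CTCF peaks, close to the 39.4% of sequence that is intronic. Intergenic sequence held 35.1% and 37.5%, less than its 51.2% of the genome, and exons 4.07% and 4.68%, against 3.27%.

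Promoters behaved in opposite ways in the 2 lists. Rad21 peaks without CTCF were more often at promoters (27.9%, 27.4 to 28.5) than those with CTCF (19.5%, 19.1 to 19.8). The gap of 8.49 percentage points was 15.6 points with scores of at least 50 in both lists. CTCF peaks without Rad21 were less often there (11.7%, 11.2 to 12.1) than those with it (19.5%, 19.1 to 19.9). Read from the side of the promoter, 77.7% of CTCF peaks at promoters had Rad21, above the background of 67.6%, while 49.9% of Rad21 peaks at promoters had CTCF, below the background of 58.9%. The median distance to a transcript start was nearly the same for all, from 6.08 kb for Rad21 peaks without CTCF to 7.05 kb for CTCF peaks without Rad21. Rad21 peaks of both kinds were wider at promoters than in introns or between genes. The medians were 632, 399 and 406 bp without CTCF, and 1046.5, 649 and 712 bp with it.

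**Figure D4:**
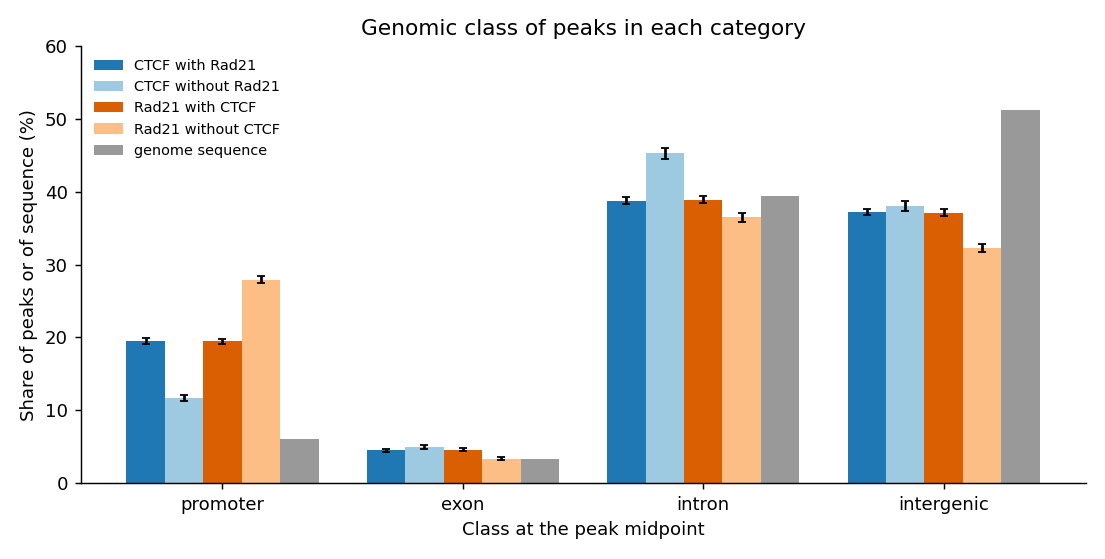
Share of peaks in each genomic class for CTCF and Rad21 peaks with and without the other protein, with 95% Wilson intervals, beside the share of known genome sequence in that class (grey). Promoters hold 27.9% of Rad21 peaks without CTCF and 11.7% of CTCF peaks without Rad21, and 6.13% of the sequence.

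The promoter share went with score in different directions. Among Rad21 peaks without CTCF it rose from 18.7% in the bottom decile to 52.2% in the seventh, which held 1002 such peaks, and to 68.7% of 233 peaks in the eighth. Among Rad21 peaks with CTCF it was lower at the top, at 15.6%, than in the fourth decile, at 22.7%. Weak CTCF peaks were at promoters far more often when Rad21 was there: in the bottom decile the shares were 36.7% with and 12.2% without Rad21. By the seventh decile they were 14.6% and 16.2%. The bottom decile of CTCF is also the one in which few peaks held a CTCF motif.

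Sequence at Rad21 peaks without CTCF divided by class. In 200-bp windows at the midpoints outside promoters, 22.0% held the AP-1 letters TGANTCA (21.4 to 22.6), against 7.59% of Rad21 peaks with CTCF outside promoters and 5.93% of all 200-bp tiles. GGAATG, the core of the motif of TEAD factors, which act downstream of Hippo signalling, was found in 14.3% (13.8 to 14.8), against 9.94% and 10.8% of tiles. The AP-1 share was 16.3% in the bottom Rad21 decile and 26.3% in the fourth, and among peaks with CTCF it stayed between 6.04% and 9.70% in all deciles. Both strands were searched for all motifs, and a match describes letters in a window, not a bound site.

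At promoters, Rad21 peaks were richer in GC and CpG than outside them, with or without CTCF. Promoter windows without CTCF had a median GC content of 58.5% and a median observed to expected CpG ratio of 0.630. With CTCF the promoter medians were 56% and 0.530. Outside promoters they were 45.5% and 0.188 without CTCF, and 46% and 0.186 with it. The GC box GGGCGG, bound by SP and KLF factors, was found in 29.9% of promoter windows without CTCF (28.9 to 31.0), against 1.96% of tiles. CCGGAAG, the core of the ETS factor motif, was found in 4.53% (4.09 to 5.01), against 0.567% of tiles. Rad21 peaks with CTCF at promoters were much like those without, with 26.3% for the GC box and 4.09% for ETS. Both motifs were thus above their share of tiles at promoters of either kind. At promoter CTCF peaks without Rad21, the GC box was found in 11.3% and the ETS core in 1.62%. Promoters without a peak were not read, so these shares are not set against promoters at large. A match to the CTCF matrix was found in 3.29% of windows without CTCF at promoters and 7.31% elsewhere, above the 1.61% of tiles, and in 22.0% and 39.9% with CTCF. The letters TGTGGTT, the core motif of RUNX factors, were found in 20.998% of windows of CTCF peaks without Rad21 and 10.2% of those with it, and in 4.71% of tiles. Those CTCF windows were also richer in soft-masked sequence, at a mean of 41.7% against 26.5%, and the part of repeats in the TGTGGTT share was not tested.

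**Figure D5:**
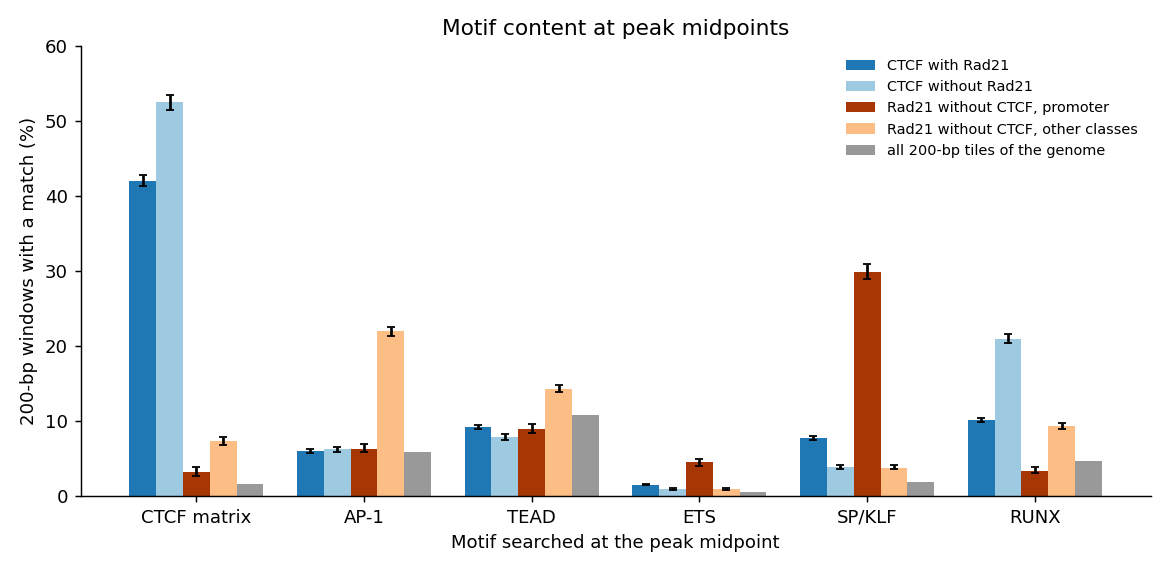
Share of 200-bp windows at peak midpoints that hold a match to the CTCF matrix or to 5 short motifs, for 4 categories of peak with 95% Wilson intervals, beside all 200-bp tiles of the genome (grey). AP-1 is highest in Rad21 peaks without CTCF outside promoters (22.0%), SP/KLF in those at promoters (29.9%), and the CTCF matrix in CTCF peaks.

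The categories drawn from wt lists were compared with lists from the other genotypes, which hold other libraries. CTCF peaks with Rad21 were found again in the CTCF mut list in 90.1% (89.8 to 90.4) and those without Rad21 in 59.8% (59.1 to 60.4). Scores differ between these kinds, and within the fifth decile the shares were 87.1% with Rad21 and 89.9% without. Rad21 peaks were found again in the Rad21 mut list in 83.8% with CTCF and 54.1% without, and within the fifth decile in 63.7% and 69.1%. Deciles here are those of the wt scores. Among wt peaks of the fifth decile, those without a partner were thus found again in the mut lists more often than those with one. The order was not the same in all deciles. In the CTCF mut list, the bottom decile had 49.5% with Rad21 and 28.8% without, the third 63.1% and 59.5%, and the seventh 98.6% and 98.3%. For Rad21 in mut, the third decile had 48.5% with CTCF and 52.6% without. In somKO, the fifth decile had 99.5% with and 99.8% without for CTCF, and 97.4% and 96.9% for Rad21.

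Sites without a partner in wt mostly lacked it in the other lists too. Of wt CTCF peaks without Rad21, 16.2% overlapped a Rad21 peak in mut (15.7 to 16.7) and 41.3% in somKO (40.6 to 42.0), where the Rad21 list was longer, at 89974 peaks. Of wt Rad21 peaks without CTCF, 8.53% overlapped a CTCF peak in mut (8.21 to 8.87) and 11.04% in somKO (10.7 to 11.4). For wt CTCF peaks with Rad21, the shares that overlapped a Rad21 peak were 84.4% in mut and 98.3% in somKO. For wt Rad21 peaks with CTCF, 90.9% overlapped a CTCF peak in mut and 97.7% in somKO. These counts did not require that the site itself was called again in the list of its own protein. The AP-1 share of Rad21 peaks without CTCF outside promoters, called within each genotype, was 21.5% in mut and 20.8% in somKO, against 22.0% in wt.

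Neighbouring peaks of the same list lay a median of 12.6 kb apart for Rad21 (12.4 to 12.8) and 14.4 kb for CTCF (14.2 to 14.7). The order depended on the weak peaks, since among peaks with a score of at least 50 in both lists the Rad21 median was 1.96 kb longer than the CTCF median, and with lists of equal length 0.928 kb longer. Under 5 kb lay 31.8% of Rad21 and 27.5% of CTCF neighbours, and over 100 kb 8.15% and 9.96%. Runs of 5 or more peaks with no gap over 5 kb held 6.82% of Rad21 and 4.65% of CTCF peaks. The longest Rad21 run, chr19:5786123-5851799, held 30 peaks, of which 10 overlapped CTCF. The longest CTCF run, chr6:47646716-47686385, held 23 peaks, of which 1 overlapped Rad21.

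In windows of 1 Mb, the numbers of CTCF and Rad21 peaks followed each other, with a Spearman rho of 0.900 over 2537 windows that share the same genome and gene density. The median window held 18 CTCF and 21 Rad21 peaks, and 52 windows had over 30 more Rad21 than CTCF peaks while 6 had the reverse. The greatest surplus of Rad21 was at chr12:79000001-80000000, with 108 Rad21 and 29 CTCF peaks, where 84 Rad21 peaks lacked CTCF. This window holds Rad51b, a recombination gene, and Arg2, an arginase gene. The next was chr15:62000001-63000000, with 68 and 7 peaks and no protein-coding gene. The third was chr2:148000001-149000000, with 85 and 25 peaks, around Foxa2, Thbd and Cd93. The Rad21 peaks without CTCF in these windows were weak, with median scores of 58.5, 45 and 49.5 in turn. The median of all such peaks was 51, and that of the whole Rad21 list 145. The AP-1 letters were found in 12 of 84, 14 of 63 and 15 of 66 Rad21 peaks without CTCF in these windows. Over all Rad21 peaks without CTCF the share was 22.0% outside promoters and 6.35% at promoters.

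The surplus of CTCF was smaller in size. At chr19:45000001-46000000, which holds Tlx1, Lbx1 and Btrc, there were 87 CTCF and 51 Rad21 peaks. At chr14:53000001-54000000 there were 56 and 21, with no protein-coding gene in the annotation used and no Rad21 peak without CTCF. At chr6:47000001-48000000, around Cntnap2, Cul1 and Ezh2, there were 75 and 40. The last of these windows holds the longest CTCF run.

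Peaks among the strongest of each category are given by their score. No regions prone to artefact signal were removed here, so a high score need not mark a bound site. The highest CTCF score among shared peaks was 95623, at chr19:61266497-61267161 between genes, 8.20 kb from the pseudogene CR555305.1, with a Rad21 score of 1148. Another was chr5:119711298-119714755, 21.8 kb from Tbx3os2, with 73961 and 24199. Others were chr11:3125277-3126097 at the promoter of Pisd-ps1 and chr5:122399414-122403303 at that of Arpc3, an actin nucleation gene, with CTCF scores of 66914 and 55432. The peak at Pisd-ps1 held no CTCF match over the limit, with a best score of 8.86 bits. Of the 100 highest scores, 34 in the CTCF list and 48 in the Rad21 list lay on chromosome 5, which makes up 5.76% of the length of the autosomes and X and held 8.58% and 7.96% of the peaks. The part of chromosome 5 in these ranks was not tested.

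The 5 strongest CTCF peaks without Rad21 were unlike the rest of their category. They lay at chr6:47752759-47753876 and chr6:47763211-47763730, 28.3 and 18.2 kb from Rny3, at chr17:39842999-39848830 at the start of Gm26917, at chr16:11143911-11144305 at the promoter of Zc3h7a, and at chr16:57391165-57391689 in an intron of Cmss1. Their scores ran from 28852 down to 14614, and whether they lie in artefact regions was not tested. Their CpG ratios were between 0.936 and 1.24, against a median of 0.186 for CTCF peaks without Rad21, and those at Zc3h7a and Cmss1 held no CTCF match. Only 43 of the 6020 CTCF peaks in the top decile lacked Rad21, and their median CpG ratio was 0.741.

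The strongest Rad21 peaks without CTCF scored far lower, from 2750 down to 1328. The first and second lay near Gm15754, at chr5:118510952-118517594 and chr5:118462707-118467748, and were 6643 and 5042 bp wide. They were the 2 peaks of the top Rad21 decile without CTCF. The third was chr5:119207657-119209782, 8.70 kb from Gm7538. The last were chr13:91370395-91372579 in an intron of A830009L08Rik and chr13:91459828-91461527 at the promoter of Ssbp2. None held a CTCF match over the limit, and the peaks at the first and the third rank held the AP-1 letters at the midpoint.

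Gene starts were then read from lists of genes, as the labels name a fibroblast. A gene was counted if a peak midpoint lay within 1 kb of any of its transcript starts. Of 21728 protein-coding genes, 51.1% had a Rad21 peak there and 32.2% a CTCF peak, with 6144 genes having both, 4950 Rad21 alone, 856 CTCF alone and 9778 neither. Binding of these proteins is not a measure of expression. Rad21 peaks were found at 13 of 18 fibroblast and matrix genes, 0 of 12 hepatocyte genes, 1 of 12 blood and immune genes, 1 of 12 epithelial genes and 2 of 12 germ line genes. Neuronal and endothelial genes had 4 and 5 of 12. Of 1134 olfactory receptor genes, 9 had a Rad21 peak and 14 a CTCF peak.

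Among the fibroblast genes 9 had both proteins and 4 Rad21 alone. Col1a1, a chain of type I collagen, had the highest Rad21 score of the list, 5043, at the 99.7th percentile of all Rad21 peaks, and a CTCF score of 5450. Its partner chain Col1a2 had the lowest Rad21 score, 71, beside a CTCF score of 4122. Col3a1, Dcn, Loxl1 and Pdgfrb had Rad21 without CTCF, with scores of 284, 194, 464 and 77. Col5a2, Col6a3, Lum, Postn and Thy1 had neither. In the lists of other cell types, the highest Rad21 scores were 1215 at Gad1 and 1036 at Stra8, and the lowest 32 at Pecam1.

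Growth response genes, whose products include AP-1 itself, had Rad21 at 11 of 12 starts and CTCF at 9. Junb had the highest Rad21 score, 2701, with a CTCF score of 5235, and Fosl1 the lowest, 89, with 137. Jun had neither protein within 1 kb. DNA replication genes had Rad21 at 11 of 12 and CTCF at 5, and 7 had Rad21 alone. Mcm5, a helicase subunit, had the highest score, 3706, and Pcna, the sliding clamp, the lowest, 20. Glycolysis genes had Rad21 at 12 of 13 and CTCF at 11, with Gapdh highest at 859 and Pgk1 lowest at 39. Actin and contractile genes had Rad21 at 7 of 12 and CTCF at 4, from 2945 at Actb down to 78 at Tpm2. Actb lies on chromosome 5, which held many of the highest scores of both lists.

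The genes for CTCF and for the cohesin machinery carried both proteins at 8 of 12 starts and Rad21 alone at 3. Pds5b, a cohesin regulator, had the highest Rad21 score, 4255, with a CTCF score of 10389. Stag1, a core subunit, followed with 3636 and 10287, and Pds5a with 2928 and 7624. Pds5a and Pds5b lie on chromosome 5, which held 48 of the 100 highest Rad21 scores. Scores were not adjusted for copy number, and the part of the chromosome was not tested. Ctcf itself had 1073 and 4335. Rad21 had the lowest Rad21 score, 63, and no CTCF peak within 1 kb of its start. The loader genes Nipbl and Mau2 had Rad21 scores of 204 and 250, the release factor gene Wapl 99, and Cdca5, which encodes sororin, neither protein. These lists are short, and their counts describe the genes named without a test of the list.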

How the data were processed

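ChIP-seq peak lists of CTCF and Rad21 from wt MEFs were compared. Per the labels and the study's methods, the authors mapped reads with Bowtie2 to mm10 with known SNP positions masked, merged all replicates of a group (3 CTCF and 2 Rad21 libraries) and called narrow peaks with MACS2 (q-value below 0.05) on reads of both alleles. Versions, and the input libraries used in calling, are not given in the sources used here. The deposited value is a score for each peak, as the authors' peak caller wrote it, and the lowest listed was 13. No read counts entered the comparison and depth is unknown.

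Overlap required 1 bp. Deciles ranked scores within a list, ties in genome order. Classes were taken at midpoints from GENCODE M21, in the order promoter, exon, intron, intergenic. Shares have Wilson intervals and medians order-statistic intervals at 95%. A CTCF matrix was learned from 2000 peaks under 600 bp on odd-numbered autosomes, with repeats masked, and a match limit passed by 1 in 20000 positions was applied on the even-numbered autosomes and X. Sequence was RefSeq GRCm38.p6, the same assembly as mm10. Named peaks are the 5 highest scores in each category, chromosome 18 left out, of which 1 is not reported here; named windows are the 3 highest and 3 lowest differences; named genes are those with the highest and lowest Rad21 score in each list, with further members chosen after values were seen. Members and lists were chosen with earlier results of these data known. The SmcHD1 lists were not used here. Interval, motif and orientation steps were tested on simulated data. Python 3.11.15, NumPy 2.4.6, pandas 2.3.3, SciPy 1.17.1, Matplotlib 3.10.9 and SAMtools 1.23.1 were used.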

Additional observations from a re-analysis of the deposited data

How the results depend on the processing

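Of 57 alternatives to 11 values, 29 stayed within the 95% interval of the value reported, 26 moved outside it with the same sign and 2 changed sign. The overlap, downstream and convergent shares and the midpoint distance cannot be negative, so none of them could change sign. Median spacing, Rad21 minus CTCF, was -1.83 kb, and became 1.96 kb with scores of at least 50 in both lists and 0.928 kb with lists of equal length; by construction both remove more Rad21 than CTCF peaks. With overlap of at least 50% of both peaks, 35.1% of CTCF and 31.2% of Rad21 peaks were shared, the gap between top and bottom decile was 46.2 and 38.9 points, the midpoint distance 89.5 bp and the promoter gap of Rad21 peaks without against with CTCF 11.1 points. With scores of at least 50 the shared shares were 68.6% and 70.5%, the decile gaps 73.7 and 77.1 points, the width gap 258 bp, the promoter gaps 6.67 (Rad21 against CTCF) and 15.6 points (Rad21 without against with CTCF), and 74.0% of Rad21 midpoints lay downstream of the motif. With equal length, the shares were 66.5% and 64.5%, the width gap 208 bp and the promoter gap 6.43 points. Midpoints within 500 bp gave 55.8% and 49.5%, one-to-one pairs 143.5 bp, a promoter of 2500 bp 3.91 and 6.58 points, and a stricter match score 24.5% convergent neighbours. Of 13 alternatives added after the data were seen, 11 stayed within the interval, 2 of them by construction, since motifs were not read on chromosome 5; without chromosome 5, 68.0% of CTCF peaks were shared, and without motif matches in soft-masked sequence 71.8% of Rad21 midpoints lay downstream. The cause of these moves was not tested. No paired analysis was possible because each list merges all replicates of its group, and for the same reason no replicate could be left out. Without read counts, a site missing from a list may lie below the limit of calling at the depth of that list.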

Other observations

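In the second CTCF decile, 69.4% of peaks without Rad21 held a CTCF match and 69.9% of those matches were soft-masked, against 44.7% and 64.2% with Rad21, while in the bottom decile 22.4% without Rad21 held a match. The promoter share of the bottom CTCF decile with Rad21 was 36.7%, and the median CpG ratio of these peaks was 0.283, against 0.189 for those without Rad21.

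Matches in repeats differed from others in geometry as well. Where the match was soft-masked, CTCF midpoints lay a median of -11 bp from the motif in 4089 pairs and Rad21 midpoints 49.5 bp downstream. Outside soft-masked sequence, in 10191 pairs, the medians were -74.5 bp and 73 bp. Widths differ between these groups.

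Apbb2, which encodes an adaptor protein of the amyloid precursor protein, held the longest run of Rad21 peaks without CTCF, 11 peaks at chr5:66523263-66550758 with a median score of 104. A run of 10, with Neat1, a nuclear long noncoding RNA gene, as the nearest gene, lay at chr19:5832366-5849685, within the longest run of the whole Rad21 list. These runs were chosen after their values were seen.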
